A study of Rattus norvegicus with 4 samples.

Results

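Transcripts of 6 genes that mark how a macrophage has been activated were followed in NR8383 cells exposed to NiZnFe2O4: Nos2, Arg1, Arg2, Il6, Il10 and Il12b. They were chosen by name, and a probe belonged to a gene if its RefSeq transcript accession was listed under that symbol for the rat. All 6 had a probe, 9 probes in all, out of 16581 genes with a symbol and 45598 probes on the array. NR8383 is a macrophage line started from lung lavage cells of a normal rat, and its cultures hold adherent as well as floating cells. At 20 passages the cells were given 9.25 µg/mL of NiZnFe2O4, by its formula an oxide of nickel, zinc and iron, for 4 h. Cy3-labelled RNA from 4 biological replicates was read on one-colour Agilent arrays, 1 for each. Untreated cells, which the design names as the control, were not analysed here. The values therefore describe the exposed cells and their spread, and no value says what the exposure changed.

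NOS2 and the arginases use the same amino acid, arginine. NOS2, the inducible nitric oxide synthase, turns it into citrulline and nitric oxide, and macrophages release the nitric oxide against microbes. ARG1 in the cytosol and ARG2 in mitochondria split it into urea and ornithine, from which polyamines are made. In rodent macrophages bacterial products and interferon-gamma are known to induce Nos2, and IL-4 and IL-13 to induce Arg1. IL-6 is an inflammatory cytokine, IL-10 restrains inflammatory output, and Il12b encodes the subunit that IL-12 and IL-23 share.

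Rat transcripts took 58717 spots per array. The scanner software flagged 37.1% to 42.5% of them as well above background and none as saturated. The arrays lay on 1 slide with 1 scan time. No spot had the same value on any pair of arrays, and for any pair Pearson's r across the genes above background was 0.975 to 0.986, a description in which genes do not count as replicates. Of 15 measured macrophage markers 9 (60%) passed this flag on all 4 arrays, among them Cd68, Lyz2 and Csf1r. Of all genes with a symbol 38.7% did, and no marker list was tested against that share. The macrophage markers Adgre1, Marco and Cd163 passed on no array. Of 8 lung epithelial markers 1 (12.5%) passed on all arrays, as did 1 of 8 granulocyte and mast cell markers (12.5%). Lymphocyte markers passed in 2 of 7 cases (28.6%), Lck and Pax5. Fibroblast and endothelial markers passed in 3 of 8 cases (37.5%), Dcn, Cdh5 and Vwf, which is close to the share of all genes. The lymphocyte count was 4 without replicate 4.

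Of the 6 genes, Arg1 was the one whose transcript was well above background on all 4 arrays. This is 1 of 6, where 38.7% of all genes with a symbol passed. Nos2 passed on some arrays, as did 9.85% of all genes. Arg2, Il6, Il10 and Il12b passed on none, a state shared by 51.4% of all genes. With the looser flag of the scanner software, which asks for a signal positive and significant against background, Nos2 joined Arg1 and 2 of 6 passed on all arrays, where 50.9% of all genes did. None of the 36 member readings carried an outlier flag, and each probe was printed in 1 spot. Since a probe's signal depends on its sequence, the genes are described 1 by 1 and their levels are not ranked.

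**Figure D1:**
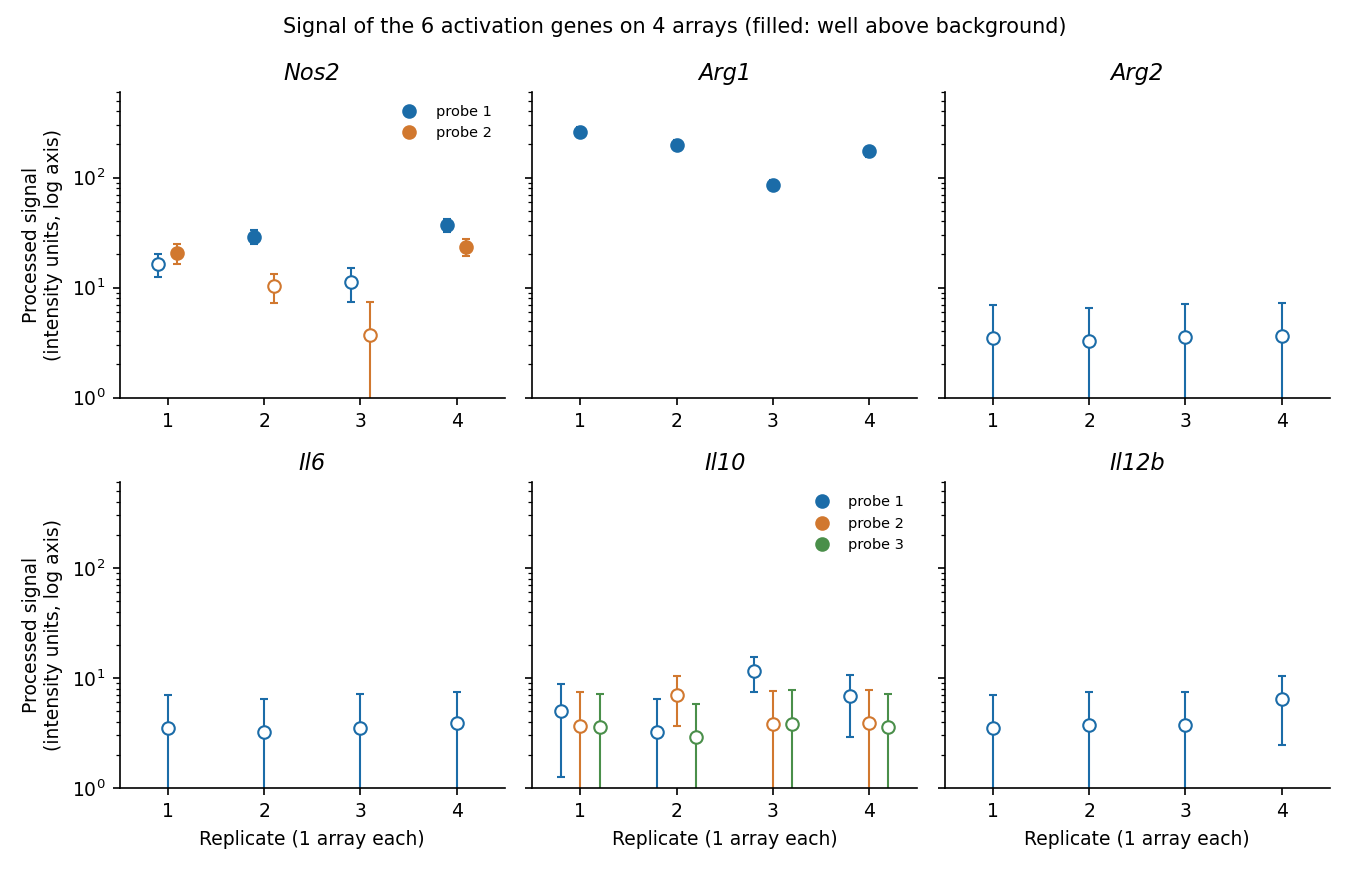
Processed signal (intensity units, log axis) of each probe of the 6 genes on the 4 arrays. Filled points were well above background and open points were not; bars are the error the scanner software gives for the spot, and they run off the lower edge where that error is about as large as the signal. All Arg1 points are filled, Nos2 has filled and open points, and all other points are open.

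Arg1, the cytosolic arginase, had processed signals of 261, 198, 86.2 and 173 intensity units on replicates 1 to 4. Replicate 3 was the low array, and even there the signal was 9.15 times the error the scanner software gave for the spot. The 75th percentile of all probes, those at background included, lay at 23.5 to 41.6 intensity units. The lowest signal well above background was 9.23 to 13.0, so the zero of this scale is low. Relative to that percentile on the same array, the log2 levels were 2.65, 2.60, 1.87 and 2.80, with a mean of 2.48 ± 0.41 (SD, n = 4). Replicates 1, 2 and 4 thus lay within 0.21 of each other. Replicate 3 lay 0.77 below the median of the other arrays, which left it at 57.1% of their mean signal after scaling. Its gap to the nearest array was 0.777 of the whole range, which is under Dixon's critical value. That measure rests on 4 values, so it cannot decide whether replicate 3 stood apart. Of the genes above background, 0.62% had a lower deviation on replicate 3 than Arg1. The shares on replicates 1, 2 and 4 were 64.9%, 44.9% and 65.1%. Fewer cells holding the transcript and less transcript per cell cannot be told apart in RNA of a whole culture.

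The Arg1 spread was wide for a gene of its signal. The SD of 0.41 exceeded that of 88.5% of the 6418 genes above background, whose median SD was 0.23. Among the 1125 genes within 0.5 log2 units of the Arg1 level it exceeded that of 90.4%, and their median SD was 0.24. The error of the Arg1 spot itself corresponded to 0.15 or 0.16 log2 units on each array. Without replicate 3 the SD was 0.11, and with each of the others left out it lay between 0.43 and 0.50. Its neighbourhood on the array did not share this deviation: the 81 other probes above background within 10 rows and columns had a median deviation of -0.04 on replicate 3. Arg1 was represented by 1 probe, so no second probe was at hand to compare.

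ARG1 is best known as a urea cycle enzyme of the liver, so 6 genes of hepatocytes were read beside it. Alb, Apoa1, Cps1, Otc, Ttr and Serpina1 were well above background on no array, a state shared by 51.4% of all genes. The RNA came from a cultured macrophage line, so this count cannot decide on a source of Arg1 and is given as description. Cps1 and Otc encode the urea cycle enzymes that precede the arginine steps. The mitochondrial Arg2 also stayed at background. Its signals were 3.47, 3.27, 3.56 and 3.59 intensity units, each just under the error of its own spot, and it was positive and significant on no array. Values of that kind sit at the floor of the processed signal and have no order between arrays.

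Nos2, the inducible nitric oxide synthase, was at the edge of detection. The probe with the higher mean gave 16.3, 29.1, 11.2 and 37.3 intensity units on replicates 1 to 4 and was well above background on replicates 2 and 4. The other probe gave 20.6, 10.2, 3.68 and 23.5 and passed on replicates 1 and 4. Each probe thus passed on 2 arrays, by either probe Nos2 passed on 3, and on replicate 3 neither did. Replicate 4 was the array on which both passed and on which both read highest.

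After scaling, the Nos2 probe with the higher mean stood at -1.35, -0.17, -1.07 and 0.59 on the log2 scale. The other probe stood at -1.01, -1.67, -2.67 and -0.07. Most readings that did not pass were still positive and significant. For the probe with the higher mean they were 4.18 and 2.93 times the spot error on replicates 1 and 3. For the other probe the reading on replicate 2 was 3.33 times its error. Its reading on replicate 3 was 0.99 times the error, not positive and significant, and is a bound. Replicate 4 was highest for both probes on either scale. Around each Nos2 spot the 66 neighbouring probes above background had median deviations between -0.10 and 0.15 on the 4 arrays. As each probe passed on some arrays only, no mean level of Nos2 is given.

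**Figure D2:**
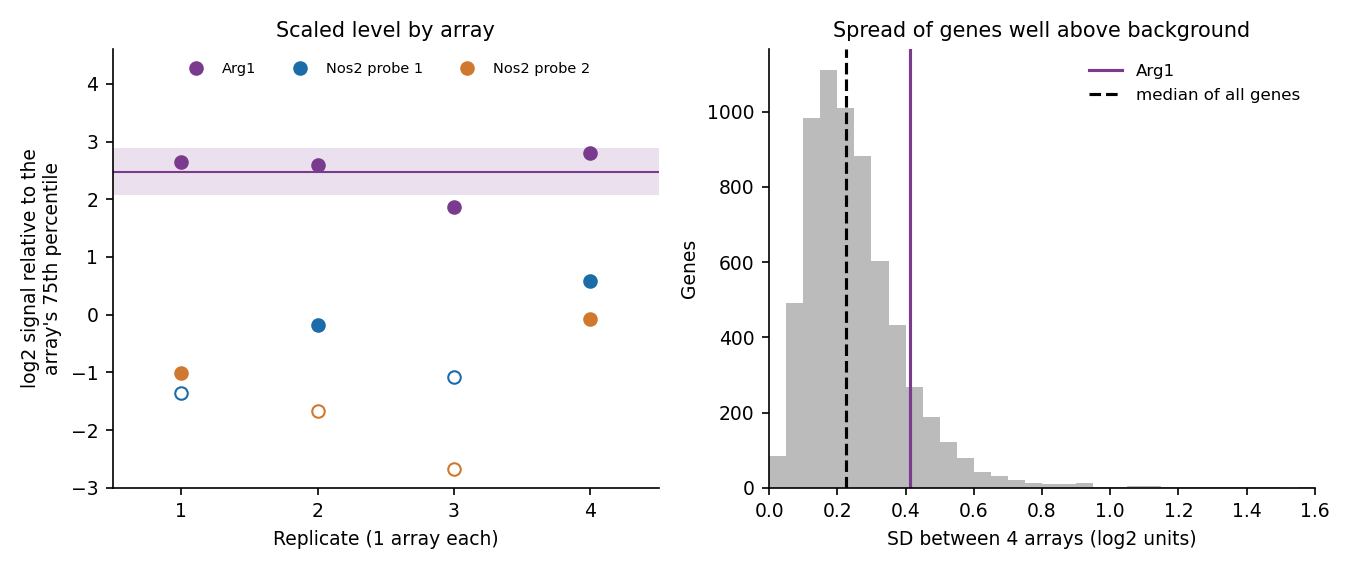
Left, log2 signal relative to the array's 75th percentile for Arg1 and for both Nos2 probes by replicate; filled points were well above background, and the line and band are the Arg1 mean and SD (2.48 ± 0.41, n = 4). Right, number of genes above background by their SD between the 4 arrays (log2 units), with Arg1 at 0.41 and the median at 0.23; Arg1 lies in the right-hand flank.

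None of the 4 arrays held Il6, Il10 or Il12b well above background. Il6 read 3.47, 3.19, 3.53 and 3.87 intensity units, and replicate 4 was the only array on which it was positive and significant. Il12b read 3.52, 3.74, 3.72 and 6.47, and it too was positive and significant on replicate 4 alone. Around the Il12b spot signals were lowered on replicate 2, where the 55 neighbouring probes above background had a median deviation of -1.05 log2 units. Its reading on replicate 2 is therefore a weaker bound than the other 3, on which it did not pass either.

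Il10 had 3 probes, and they did not point to the same arrays. The probe with the highest mean read 4.99, 3.23, 11.4 and 6.79 intensity units and was positive and significant on replicates 1, 3 and 4. The next probe read 3.68, 7.02, 3.79 and 3.87 and was positive and significant on replicate 2 alone. The remaining probe, which targets a predicted transcript variant, read between 2.89 and 3.83 and was so on no array. Across the 24 readings of Arg2, Il6, Il10 and Il12b 6 were positive and significant, 18 did not exceed their own error, and all lay between 0.25 and 0.88 times the lowest signal that was well above background on the same array. None of the 24 readings passed the stricter flag, which is not a statement that the transcripts were absent.

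The genes around the 6 members were then counted in 8 lists, 128 measured genes without repeats, of which 69 (53.9%) were well above background on all arrays, where 38.7% of all genes were. The genes were picked for known roles in macrophages and no list was tested against that share. Enzymes and carriers of nitric oxide and arginine metabolism passed in 17 of 25 cases (68%), with a median of 4 arrays per gene against 0 over all genes. The other synthases Nos1 and Nos3 passed on no array. Gch1, which starts the synthesis of the NOS cofactor tetrahydrobiopterin, stood at 5.27 ± 0.22 (log2 level, SD, n = 4). Asl, which forms arginine from argininosuccinate, stood at 5.15 ± 0.29 (log2 level, SD, n = 4), while Ass1, which makes argininosuccinate from citrulline, passed on no array. Odc1, which turns the ornithine made by arginase into the polyamine putrescine, stood at 5.12 ± 0.36 (log2 level, SD, n = 4), and at 4.53 with the mean of both probes. The arginine carrier gene Slc7a2 passed on 3 of 4 arrays. Slc7a1 had no probe tied to its symbol.

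**Figure D3:**
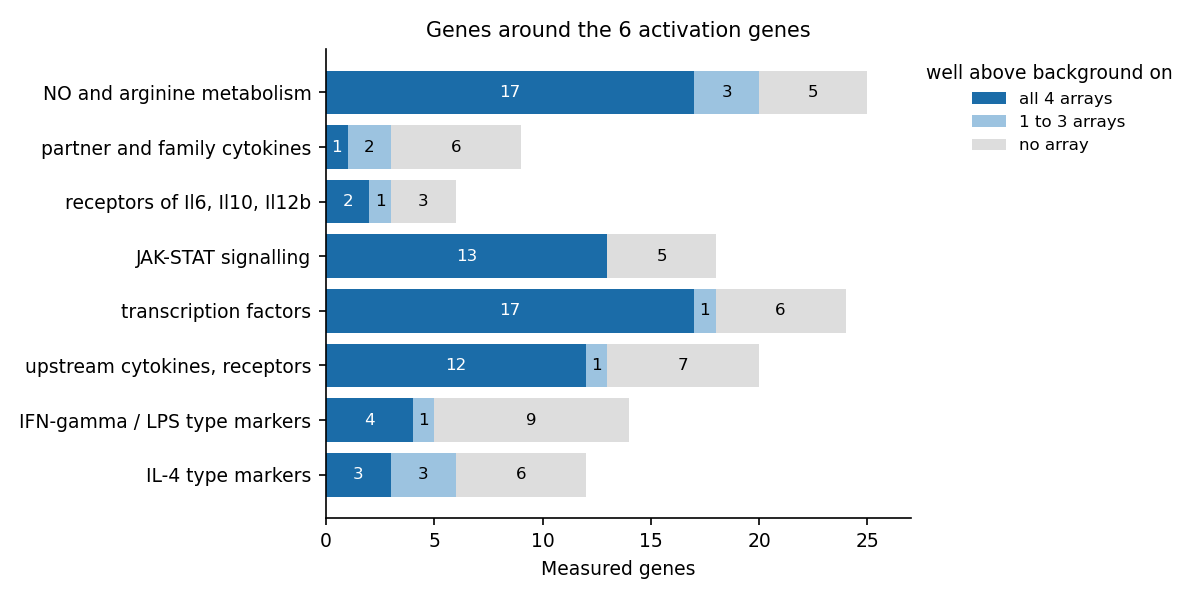
Number of measured genes in each of the 8 lists (horizontal axis) that passed as well above background on 4 arrays, on 1 to 3 or on none. The blue parts are longest for nitric oxide and arginine metabolism and for transcription factors, at 17 genes each, and shortest for partner and family cytokines, at 1.

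Partner and family cytokines of the interleukins passed in 1 of 9 cases (11.1%). That gene was Ebi3, the partner subunit in IL-27, at a log2 level of 0.56 ± 0.47 (SD, n = 4). Il12a and Il23a, whose products pair with the Il12b product to form IL-12 and IL-23, passed on no array, so that neither subunit of either cytokine was well above background. Il27 had no probe tied to its symbol.

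Receptor genes passed in 2 of 6 cases (33.3%), close to the 38.7% of all genes. They were Il6st, the signalling chain of the IL-6 receptor, at 0.52 ± 0.56, and Il10rb, the shared chain of the IL-10 receptor, at 2.98 ± 0.18 (log2 level, SD, n = 4 each). Il6r, which binds IL-6 itself, passed on 3 arrays. Il10ra, the ligand-binding chain for IL-10, passed on none but was positive and significant on all 4. Il12rb1 and Il12rb2 passed on none. Of the 2 Il6st probes 1 passed on all arrays, and with the mean of both probes its level was -0.87.

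Genes of JAK-STAT signalling, a general list that goes beyond these receptors, passed in 13 of 18 cases (72.2%). Jak1 stood at 4.57 ± 0.25 and Tyk2 at 1.71 ± 0.31, each a kinase of some of these receptors (log2 level, SD, n = 4 each). Stat3, the main transducer of IL-6 and IL-10, stood at 2.76 ± 0.28 (log2 level, SD, n = 4). Socs3, a feedback inhibitor that STAT3 is known to induce, stood at 2.80 ± 0.07 (log2 level, SD, n = 4). With the mean of both probes of each gene, the levels were 2.97 for Jak1, 1.03 for Tyk2 and 1.42 for Socs3. Stat4, the transducer of IL-12, passed on no array.

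Transcription factors known to act on the member genes passed in 17 of 24 cases (70.8%). Cebpb, a regulator of Il6 and Arg1, stood at 7.51 ± 0.30 (log2 level, SD, n = 4), and at 6.05 with the mean of both probes. The NF-kB subunit genes Nfkb1 and Rela stood at 1.81 ± 0.20 and 3.25 ± 0.64 (log2 level, SD, n = 4 each), and Rela ranged between 2.40 on replicate 4 and 3.93 on replicate 3. Irf1, which interferon-gamma induces and which acts on Nos2 and Il12b, stood at 3.31 ± 0.31 (log2 level, SD, n = 4). Irf8, another regulator of Il12b, and Maf, a regulator of Il10, passed on no array. Of the Nfkb1 probes 1 of 2 passed on all arrays, and with the mean of both its level was -0.01.

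**Figure D4:**
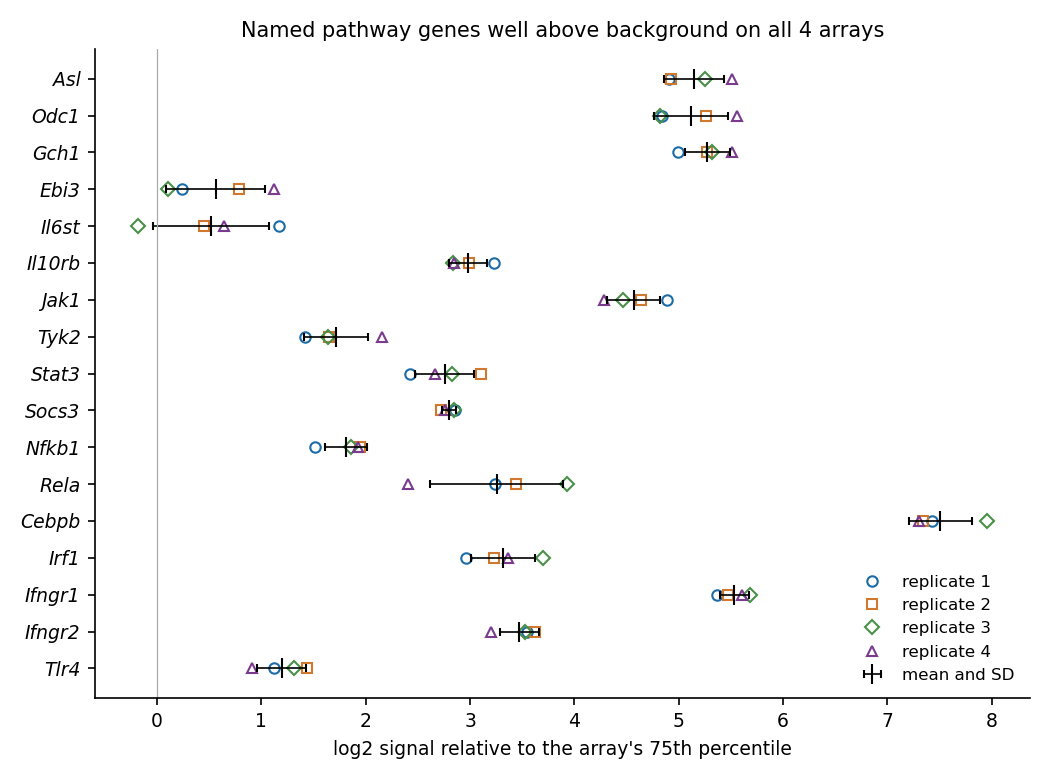
Log2 signal relative to the array's 75th percentile (horizontal axis) for the named pathway genes that were well above background on all 4 arrays, with each replicate as a symbol and the mean and SD in black. Each row is to be read along its own axis, since probes of different genes are not comparable; Socs3 has the tightest symbols (SD 0.07) and Rela the widest (SD 0.64).

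Cytokines and receptors that act upstream of the members passed in 12 of 20 cases (60%). The interferon-gamma receptor genes Ifngr1 and Ifngr2 stood at 5.53 ± 0.14 and 3.47 ± 0.19, and Tlr4, the endotoxin receptor, at 1.19 ± 0.23 (log2 level, SD, n = 4 each). The ligand genes Ifng and Il4 passed on no array. Other ligand genes of the list, named after their values were seen, were split. Tnf at 3.67 ± 0.25, Il1b at 4.15 ± 0.12 and Tgfb1 at 4.06 ± 0.36 passed on all 4 arrays (log2 level, SD, n = 4 each), Tnf by 1 of its 2 probes. Il13, Csf2 and Ifnb1 passed on none. Il4r, the receptor chain for IL-4, passed on 3 of 4, with replicate 1 the exception at -1.44.

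Further markers of the activation states that Nos2 and Arg1 stand for were counted last. Of 14 markers of interferon-gamma or endotoxin type activation 4 passed on all arrays and 9 on none, where 51.4% of all genes passed on none. The 9 were Cd40, Cd80, Cd86, Cxcl9, Cxcl11, Ptgs2, Acod1, Gbp5 and Ido1, and Ccl5 passed on 3 arrays. The 4, named after their values were seen, were Il1a at 4.02 ± 0.40, Il18 at 4.14 ± 0.10, the guanylate-binding protein gene Gbp2 at 2.99 ± 0.17 and the chemokine gene Cxcl10 at 1.64 ± 0.50 (log2 level, SD, n = 4 each). Of 12 markers of IL-4 type activation 3 passed on all arrays and 6 on none. The 6 were Retnla, Clec10a, Cd163, Ccl24, Clec4m and Fn1, while Mrc1 and Tgm2 passed on 3 arrays and Ccl17 on 2. The 3, also named after their values were seen, were the chemokine gene Ccl22 at 4.65 ± 0.52, the IL-1 receptor antagonist gene Il1rn at 5.13 ± 0.07 and the beta-glucan receptor gene Clec7a at 5.38 ± 0.15 (log2 level, SD, n = 4 each). Of the 3 Ccl22 probes 1 passed on all arrays. With every probe of a gene required, 2 of the 12 markers passed. The shares on all arrays were 28.6% and 25%, where 38.7% of all genes passed, and no test was made between the lists.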

How the data were processed

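The deposited files are spot tables of 4 one-colour arrays. Per the submitters' processing notes, the authors used Agilent Feature Extraction 11.0.1.1. The deposited intensity values are the processed signal, which per the file headers is corrected for background and spatial trend, its error and the raw signals; they are not scaled between arrays. Deposited flags are 0 or 1.

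Control spots (4259 per array) and outlier-flagged spots (491 to 828 per array) were left out. Log2 signals were averaged per probe, and the array's 75th percentile over all probes was subtracted. A probe passed on an array if at least 0.5 of its spots were well above background; a gene passed on all arrays if any of its probes did. For the level of a gene, the probe with the highest mean was taken. Accessions without versions were matched to RefSeq transcripts of the assembly GRCr8, giving 21109 probes with 1 symbol, 0 with several and 24489 with none. The array design names the build rn4, so no coordinates are printed. As all samples form 1 group, no test between groups was made; the labels call the samples biological replicates. The members and lists were chosen with earlier results of these data known, and up to 6 genes per list that act directly with a member are named; 1 such gene is not reported here. With 4 arrays of 1 group no likeness of pattern between genes was computed.

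Alternatives were the looser flag, 3 of 4 arrays, every probe passing, outlier spots kept, the mean of probes, normexp on median signals (offset 50, limma 3.58.1, R 4.3.3), quantile normalization, no scaling, the percentile over probes above background, and leaving out each replicate. Removal of the local trend within 10 rows and columns was added after seeing the data. The rest ran in Python 3.11.15 with numpy 2.4.6 and pandas 2.3.3, and the procedures were tested on simulated data. The number of arrays limits the precision.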

Additional observations from a re-analysis of the deposited data

How the results depend on the processing

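No paired analysis was possible because all samples belong to 1 group. Of 343 recomputed values 282 stayed within the spread between replicates or, for counts and SDs, within 1.5 times. This tally is no measure of robustness, since part of it was fixed in advance. A level with 1 replicate left out cannot leave the spread. The mean of probes changes nothing for a gene with 1 probe, and keeping outlier spots cannot change the flags of the members. With the flag for positive and significant signals, 2 members passed on all arrays, and the best probe passed on 4 arrays for Nos2, 3 for Il10, 1 for Il6 and 1 for Il12b. The same flag gave 7 interferon-gamma or endotoxin type markers, 5 IL-4 type markers, 4 receptors and 2 partner cytokines on all arrays. With 3 of 4 arrays sufficing there were 5 IL-4 type markers. With every probe required there was 1 receptor. The Arg1 level was 1.21 with normexp, whose offset compresses low signals, and -1.98 against the percentile over probes above background, a higher zero point. Its SD was 0.68 without scaling between arrays. Leaving out 1 replicate at a time gave Arg1 levels of 2.37 to 2.68 and SDs of 0.11 to 0.50. The best Nos2 probe then passed on 1 to 2 arrays, 1 being without replicate 4. Arg2 passed on no array under any setting run, of which the looser flag alone could have changed this count. With a signal near background, Nos2 is limited by signal over background, and 4 of the 6 genes rest on 1 probe.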
